A study of Mus musculus with 15 samples.

Results

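Long noncoding RNAs were examined in mouse bone marrow derived macrophages (BMDMs) that had met 2 redox forms of the alarmin HMGB1 or bacterial lipopolysaccharide. The 287 RNAs described here were chosen by annotation and by level. Each carries the GENCODE M21 type lincRNA, antisense, bidirectional_promoter_lncRNA or sense_intronic, and each reached at least 1 CPM (its count scaled to a common library total) in all 3 libraries of at least 1 condition. They come from 9044 genes of these 4 types in a table of 51763 genes, of which 5391 of the 9044 had no read in any library. By type they were 135 lincRNA (of 5581), 117 antisense (of 2947), 28 bidirectional_promoter_lncRNA (of 189) and 7 sense_intronic genes (of 327). The members nearest to the minimum were Gm45495 and Gm20939 at 1.00 CPM and Gm26648 at 1.01 CPM in the lowest library of their best condition, and the genes just below it were Zmiz1os1 at 0.983, Gm15247 at 0.981 and Gm26811 at 0.977 CPM.

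Long noncoding RNAs are transcripts without a long open reading frame that are usually capped, spliced and polyadenylated like messenger RNAs. Some act in the nucleus on chromatin or on nuclear bodies, some are the primary transcripts from which microRNAs or small nucleolar RNAs are cut, and many are made from the opposite strand or the shared promoter of a protein-coding gene. In macrophages, several are known targets of Toll-like receptor 4, the receptor for lipopolysaccharide (LPS), and of the NF-κB and interferon pathways that act after it. HMGB1 is a nuclear chromatin protein that signals danger once it is outside the cell, and the oxidation state of its cysteines sets which receptors it engages.

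The cells were wild-type BMDMs, grown with M-CSF from the marrow of female C57BL/6NTac mice aged 8 to 10 weeks, and those of 5 mice were pooled before seeding. For 24 hours they then received PBS, HMGB1 at 5 µg/mL, LPS-EK at 1 µg/mL, or LPS with 20 ng/mL IFNγ (LPS/IFNγ). The HMGB1 was either fully reduced (frHMGB1) or in the disulfide form (dsHMGB1), and each of the 5 conditions has 3 libraries. For the last group the sample labels give 1 µg/mL LPS and the protocol text gives 100 ng/mL, so its LPS dose is uncertain and a difference between LPS/IFNγ and LPS cannot be told apart from a difference in dose. Since all libraries share the same pool of cells, p-values reflect how cultures and libraries vary, and animals are not compared.

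The libraries held 40934540 to 80925478 counted reads, and the 287 RNAs took 0.223% to 0.251% of them in PBS and frHMGB1 against 0.160% to 0.197% in the other 3 conditions. Macrophage genes were high in all 15 libraries, as for Lyz2 at 9140 to 20450 CPM and Csf1r at 1165 to 3206 CPM. Ly6g, Mpo, Cd3e and Hbb-bs were listed at 0 in all of them, whereas Cd4 was at 13.5 to 35.4 CPM and S100a8 at 1.69 to 5.47 CPM. The fibroblast markers summed to 118 to 282 CPM. The endothelial markers, nearly all Kdr, summed to 11.7 to 30.8 CPM in PBS and frHMGB1, 62.8 to 81.4 in dsHMGB1 and LPS, and 98.9 to 104 in LPS/IFNγ, while the macrophage markers summed to 22475 to 27823, 16820 to 22057 and 14241 to 14626 CPM. Their part in the results was not tested. In bulk RNA, fewer cells of a type and less RNA per cell cannot be told apart.

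PBS replicate 3 stood apart. Its log2 CPM correlated with the other PBS libraries at 0.938 and 0.933, while other pairs within a group lay between 0.987 and 0.993. In it 75 of the 287 RNAs were more than 2-fold above the mean of the other PBS libraries and 55 were more than 2-fold below. Malat1 took 3.93% of the reads on these RNAs there against 13.5% and 11.4%, and mitochondrial genes took 0.346% of all reads against 0.840% and 0.890%. Counts of calls against PBS over all 287 RNAs are therefore given with and without that library, as are the values of some named RNAs. All other results against PBS include it and can shift without it. For Tug1 with LPS/IFNγ, for example, the log2 fold change was 1.13 with it and 0.77 without it.

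Of the 287 RNAs, 12 contain 20 annotated microRNA hairpins on their own strand. The mature sequences of the hosts that the results below turn on are shown because they are the products these hosts are known for, although the level of a host measured here is not the level of the mature microRNA. They were taken from RefSeq on GRCm38.p6, read 5′ to 3′, and the capitals mark the seed at bases 2 to 8, which pairs with target messages.

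Mir155hg, mmu-miR-155-5p: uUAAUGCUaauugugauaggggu
Gm3764 and Mir9-3hg, mmu-miR-9-5p: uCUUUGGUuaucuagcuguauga
Gm3764 and Mir9-3hg, mmu-miR-9-3p: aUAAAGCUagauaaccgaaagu
Mir17hg, mmu-miR-17-5p: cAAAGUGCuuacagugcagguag
Mir17hg, mmu-miR-20a-5p: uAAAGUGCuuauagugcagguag
Mir17hg, mmu-miR-18a-5p: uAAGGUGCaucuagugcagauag
Mir17hg, mmu-miR-19a-3p: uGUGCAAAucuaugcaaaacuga
Mir17hg, mmu-miR-19b-3p: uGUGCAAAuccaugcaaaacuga
Mir17hg, mmu-miR-92a-3p: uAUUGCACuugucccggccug
F630028O10Rik, mmu-miR-223-3p: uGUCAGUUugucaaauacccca
Mir142hg, mmu-miR-142a-3p: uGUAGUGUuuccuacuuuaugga

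Among the 287 RNAs, the same miR-9-5p and miR-9-3p thus lie within 2 hosts, at chr3:88215613-88215673 in Gm3764 and at chr7:79505279-79505339 in Mir9-3hg. Copies of miR-9 outside these RNAs were not looked at. Within Mir17hg, miR-17-5p and miR-20a-5p share the seed AAAGUGC, and miR-19a-3p and miR-19b-3p share the seed GUGCAAA.

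Promoters are shown for Ptgs2os2 and Il1bos, which rose with the inflammatory genes Ptgs2 and Il1b beside them, and for Gm34643, which lies near Acod1 and was chosen after its values were seen. Each is the RefSeq window from 250 bases before to 50 bases after the start site, on GRCm38.p6 and on the strand of the gene. Capitals mark matches on either strand to the interferon-type element (ISRE, here a pair of GAAA blocks with any 2 bases between them), the STAT-type element TTCNNNGAA or the AP-1 element TGANTCA.

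Ptgs2os2, chr1:150164899-150165198, minus strand: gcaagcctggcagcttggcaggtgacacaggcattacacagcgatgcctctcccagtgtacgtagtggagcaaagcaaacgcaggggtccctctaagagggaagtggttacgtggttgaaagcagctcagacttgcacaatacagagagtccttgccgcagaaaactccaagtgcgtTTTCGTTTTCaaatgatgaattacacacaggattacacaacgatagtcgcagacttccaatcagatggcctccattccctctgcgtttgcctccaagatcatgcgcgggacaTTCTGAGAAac
Il1bos, chr2:129369652-129369951, plus strand: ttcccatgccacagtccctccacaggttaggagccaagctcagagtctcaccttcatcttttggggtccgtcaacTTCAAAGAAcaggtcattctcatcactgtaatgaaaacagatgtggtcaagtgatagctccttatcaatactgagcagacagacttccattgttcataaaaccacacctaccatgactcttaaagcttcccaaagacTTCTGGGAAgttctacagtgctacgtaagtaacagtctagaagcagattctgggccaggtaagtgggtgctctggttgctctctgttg
Gm34643, chr14:103012625-103012924, plus strand: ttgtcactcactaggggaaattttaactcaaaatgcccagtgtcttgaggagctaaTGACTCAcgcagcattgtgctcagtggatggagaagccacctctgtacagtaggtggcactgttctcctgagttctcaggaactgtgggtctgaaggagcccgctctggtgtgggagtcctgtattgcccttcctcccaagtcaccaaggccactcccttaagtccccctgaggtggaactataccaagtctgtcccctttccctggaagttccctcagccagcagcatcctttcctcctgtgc

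The Ptgs2os2 window holds the interferon-type element from position -73 and a STAT-type match from position 39, counted from the start site. The Il1bos window holds 2 STAT-type matches, the first from position -175, and the Gm34643 window holds the AP-1 element from position -194. Over the 129 of the 287 RNAs with a RefSeq promoter within 1 kb of their GENCODE start, the interferon-type element was in 5 (3.88%, against 3.44% of all 32851 promoters), the STAT-type element in 12 (9.30%, against 8.30%) and the AP-1 element in 8 (6.20%, against 7.81%). The PU.1 element GAGGAAGT was in 8 (6.20%, against 3.20%), and the κB element was in 0 (against 0.411%). These are letter matches in a short window and say nothing of binding.

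Levels were at their highest mean in PBS for 102 of the 287 RNAs, in frHMGB1 for 71, in LPS/IFNγ for 57, in LPS for 32 and in dsHMGB1 for 25. The CPM minimum was reached in PBS by 183, in frHMGB1 by 215, in dsHMGB1 by 155, in LPS by 129 and in LPS/IFNγ by 137. It was reached in all 5 conditions by 71, by 108 in PBS or frHMGB1 alone, and by 59 in dsHMGB1, LPS or LPS/IFNγ alone. An RNA that entered only through the condition in which it was high had to differ from the others, so the counts below describe these RNAs and support nothing beyond that. For the same reason an adjusted p is given for a named RNA only where it reached the minimum in both conditions compared, and elsewhere its levels and fold are given alone.

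A change was called where edgeR's quasi-likelihood test, fitted over 16919 genes in all 15 libraries, gave a Benjamini-Hochberg adjusted p under 0.05. With dsHMGB1 against PBS, 76 of the 287 RNAs were called higher and 125 lower, where 23.3% and 24.2% of all genes tested were called higher and lower. With LPS, 81 were higher and 146 lower (all genes 26.7% and 36.2%). With LPS/IFNγ, 84 were higher and 142 lower (all genes 29.0% and 31.2%). With frHMGB1, 5 were higher and 1 lower (all genes 1.31% and 5.69%, coding genes under the same minimum 1.66% and 0.378%). The 4 comparisons share the PBS libraries. Over all 5 conditions together, 252 of the 287 were called, where 72.5% of all genes were.

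Calls lower thus outnumbered calls higher among these 287 RNAs after 24 hours of an inflammatory stimulus. The shares were 43.6% lower to 26.5% higher with dsHMGB1, 50.9% to 28.2% with LPS and 49.5% to 29.3% with LPS/IFNγ. More of the RNAs had entered through PBS or frHMGB1 alone (108) than through dsHMGB1, LPS or LPS/IFNγ alone (59), and such RNAs had to differ. Protein-coding genes under the same minimum were nearer to balance, at 29.3% lower to 28.2% higher, 35.9% to 33.3% and 37.5% to 34.3%. The difference depended on which RNAs were counted. Of the 105 that reached the minimum in both PBS and dsHMGB1, 41 were lower (39.0%) and 18 higher (17.1%). For PBS and LPS this was 26 of 79 lower (32.9%) and 20 higher (25.3%), and for PBS and LPS/IFNγ 28 of 78 lower (35.9%) and 21 higher (26.9%). Coding genes that reached the minimum in both gave 28.1% lower and 27.7% higher with dsHMGB1. With LPS they gave 32.8% and 34.1%, and with LPS/IFNγ 34.9% and 35.0%. Of the 71 RNAs reaching it in all 5 conditions, 26 were lower (36.6%) and 21 higher (29.6%) with LPS/IFNγ (coding genes 34.7% and 35.3%). With LPS, 23 of them were lower (32.4%) and 18 higher (25.4%), where 9266 coding genes under that stricter rule gave 32.4% and 34.5%. With dsHMGB1, 19 of the 71 were lower (26.8%) and 15 higher (21.1%), against 26.0% and 29.0%. The median log2 fold change over the 287 was -0.54 with dsHMGB1, -0.81 with LPS and -0.74 with LPS/IFNγ, and over all genes it was -0.10, -0.21 and -0.13.

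**Figure D1:**
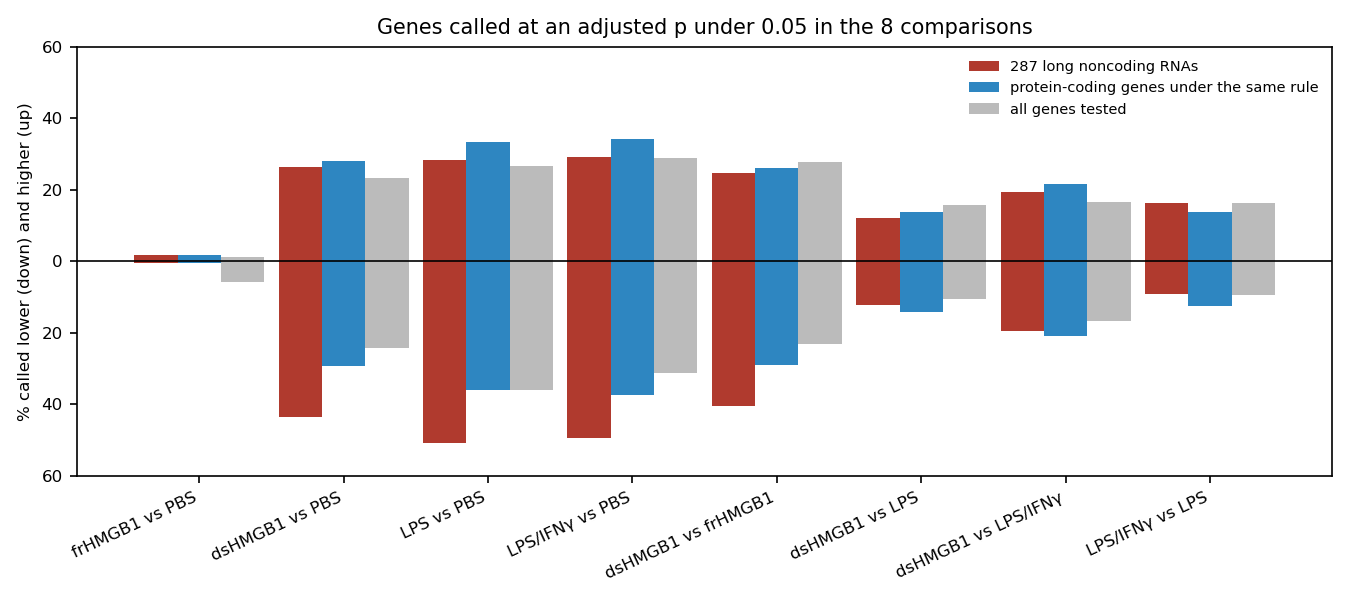
Percent of genes called higher or lower (edgeR adjusted p under 0.05) in the 8 comparisons, for the 287 long noncoding RNAs (red), protein-coding genes under the same minimum of 1 CPM (blue) and all 16919 genes tested (grey). The red bars for lower reach 43.6%, 50.9% and 49.5% with dsHMGB1, LPS and LPS/IFNγ against PBS, and stay near 0 with frHMGB1.

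Counts by type are given as a description, with PBS replicate 3 included. They were not split by the conditions in which an RNA reached the minimum, so types may differ through the entry rule. Of the 135 lincRNA genes, 30 rose and 75 fell with LPS (median log2 fold change -1.10). Among the 117 antisense genes 43 rose and 51 fell (median -0.41), where 26.7% of all genes rose and 36.2% fell. Of the 28 genes at bidirectional promoters, 8 rose and 16 fell (median -1.19). With dsHMGB1, 42 antisense genes were higher and 39 lower, and 24 lincRNA genes were higher and 66 lower (all genes 23.3% and 24.2%). Without PBS replicate 3 the counts for all 287 were 88 higher and 129 lower with dsHMGB1, 93 and 154 with LPS, and 96 and 146 with LPS/IFNγ. Of all genes, 29.8% were then higher and 29.0% lower with dsHMGB1, 32.9% and 38.3% with LPS, and 33.3% and 34.4% with LPS/IFNγ. The medians of the 287 were -0.45, -0.60 and -0.52, while over all genes they were 0.02, -0.11 and 0.04.

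Some of the largest rises were in RNAs that have been described in inflamed macrophages. Of the 27 genes on a list of such RNAs, 8 were among the 287, and 5 of these rose and 2 fell in each of dsHMGB1, LPS and LPS/IFNγ. Some of the 8 are in the set only through conditions in which they were high. Over the 17 listed genes that were tested at any level, 8 rose and 3 fell with dsHMGB1, 9 and 6 with LPS, and 9 and 5 with LPS/IFNγ, with median log2 fold changes of 0.60, 0.97 and 1.18. The 5 were Mir155hg, AW112010, Ptgs2os2, Gm16685 and Gm14005, and the 2 that fell with dsHMGB1 and LPS were 1810058I24Rik and F630028O10Rik. With LPS/IFNγ those that fell were 1810058I24Rik and Mir142hg, but without PBS replicate 3 Mir142hg was not called (0.14) and F630028O10Rik was called lower (-1.19, adjusted p = 3.85e-06).

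AW112010 (ENSMUSG00000075010, chr19:11047612-11055808, minus strand) is an interferon- and LPS-induced transcript, annotated as noncoding, from which a small protein has been described. Its normalised read counts were 252, 196 and 241 in PBS, 288, 337 and 169 in frHMGB1, 22095, 16899 and 16784 in dsHMGB1, 30706, 29444 and 29722 in LPS, and 22351, 21064 and 22612 in LPS/IFNγ. All 9 libraries of the last 3 conditions lay far above the 6 others. The log2 fold change against PBS was 6.34 ± 0.21 (SE) with dsHMGB1 (adjusted p = 1.37e-10), 7.03 ± 0.21 with LPS (4.03e-11) and 6.59 ± 0.21 with LPS/IFNγ (5.32e-11). The level in dsHMGB1 was lower than in LPS by a log2 difference of -0.69 ± 0.20 (adjusted p = 0.0258). Per kb of exon it was the most abundant of the 287 RNAs, at a mean of 258 CPM per kb over all libraries, and it alone took 14.7% to 24.9% of the reads on these RNAs in the 3 conditions against 0.163% to 0.320% in PBS and frHMGB1.

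Mir155hg (ENSMUSG00000097418, chr16:84703167-84715245, plus strand) is the primary transcript of miR-155, a microRNA of macrophage activation whose sequence is given above. Its normalised counts were 0, 1.26 and 0 in PBS, 0, 3.07 and 1.08 in frHMGB1, 557, 628 and 404 in dsHMGB1, 1129, 959 and 765 in LPS, and 1854, 2064 and 1850 in LPS/IFNγ. The libraries of dsHMGB1, LPS and LPS/IFNγ did not overlap, in that rising order, and all lay above those of PBS and frHMGB1. Since PBS held 2 reads in all, the ratio to PBS is given with its 95% counting interval, as 1063-fold (294 to 8783) for dsHMGB1, 1910-fold (528 to 15784) for LPS and 3824-fold (1058 to 31580) for LPS/IFNγ. LPS/IFNγ exceeded LPS by a log2 difference of 1.01 ± 0.22 (adjusted p = 0.00746), and dsHMGB1 was below LPS by -0.85 ± 0.22 (adjusted p = 0.0344).

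Ptgs2os2 (ENSMUSG00000097754, chr1:150159043-150164948, minus strand), also known as lincRNA-Cox2, lies 50816 bp from Ptgs2, the gene of cyclooxygenase 2. Its normalised counts were 5.82, 1.26 and 2.35 in PBS, 0, 2.04 and 2.16 in frHMGB1, 259, 213 and 164 in dsHMGB1, 1004, 982 and 791 in LPS, and 603, 761 and 720 in LPS/IFNγ. The log2 fold change against PBS was 6.03 ± 0.46, 8.15 ± 0.45 and 7.74 ± 0.45 in these 3 conditions. DsHMGB1 was below LPS by a log2 difference of -2.13 ± 0.22 (adjusted p = 9.12e-05). Ptgs2 itself rose from 74.1 ± 34.0 (SD, n = 3) normalised counts in PBS to 59673 ± 8692 in dsHMGB1 and 290884 ± 15086 in LPS.

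Il1bos (ENSMUSG00000074805, chr2:129369897-129375748, plus strand) is transcribed against Il1b, the gene of the cytokine interleukin 1 beta, and only 0.839% of its exon bases are shared with exons of the other strand. It had no read in PBS or frHMGB1. Normalised counts were 77.4, 61.6 and 63.9 in dsHMGB1, 1491, 1678 and 1747 in LPS, and 706, 815 and 682 in LPS/IFNγ, so the 3 conditions were fully separated, with LPS highest. Against a floor of 3 reads over the PBS group it was at least 89.2-fold, 2167-fold and 972-fold higher. DsHMGB1 was below LPS by a log2 difference of -4.60 ± 0.17 (adjusted p = 1.23e-07), and LPS/IFNγ was below LPS by -1.16 ± 0.15 (adjusted p = 0.000305). Il1b kept this order, with dsHMGB1 at 49814 ± 7485 (SD, n = 3) normalised counts, LPS at 442424 ± 12069 and LPS/IFNγ at 59514 ± 812, and its own log2 difference was -3.15 for dsHMGB1 against LPS and -2.89 for LPS/IFNγ against LPS.

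Gm14005 (ENSMUSG00000074813, chr2:128178319-128502765, minus strand), known as Morrbid, is an RNA of myeloid cell survival that lies 15772 bp from Bcl2l11, the gene of the pro-apoptotic protein Bim. Its normalised counts were 25.2, 23.3 and 49.3 in PBS, 34.2, 54.2 and 41.0 in frHMGB1, 1591, 1257 and 1205 in dsHMGB1, 2130, 2081 and 1967 in LPS, and 691, 675 and 756 in LPS/IFNγ. LPS/IFNγ was below LPS in every library, by a log2 difference of -1.54 ± 0.19 (adjusted p = 9.5e-05), and also below dsHMGB1, where dsHMGB1 exceeded it by 0.93 ± 0.19 (adjusted p = 0.00217). Bcl2l11 was at 7315 ± 1322 (SD, n = 3) in PBS, with dsHMGB1 at 10433 ± 331 and LPS at 21022 ± 782, and it was highest in LPS/IFNγ at 33085 ± 42.9.

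Gm16685 (ENSMUSG00000097804, chr3:7612705-7690001, plus strand) runs against Il7, the gene of a lymphocyte growth factor. It had no read in PBS, normalised counts of 4.28, 6.13 and 6.47 in frHMGB1, 189, 210 and 228 in dsHMGB1, 322, 323 and 303 in LPS, and 227, 168 and 162 in LPS/IFNγ. Against the floor of 3 reads it was at least 7.48-fold higher in frHMGB1, 278-fold with dsHMGB1, 420-fold after LPS and 245-fold after LPS/IFNγ. Il7 was not called in any of the 4 comparisons, and its means lay between 37.0 and 86.2 normalised counts in all 5 conditions.

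**Figure D2:**
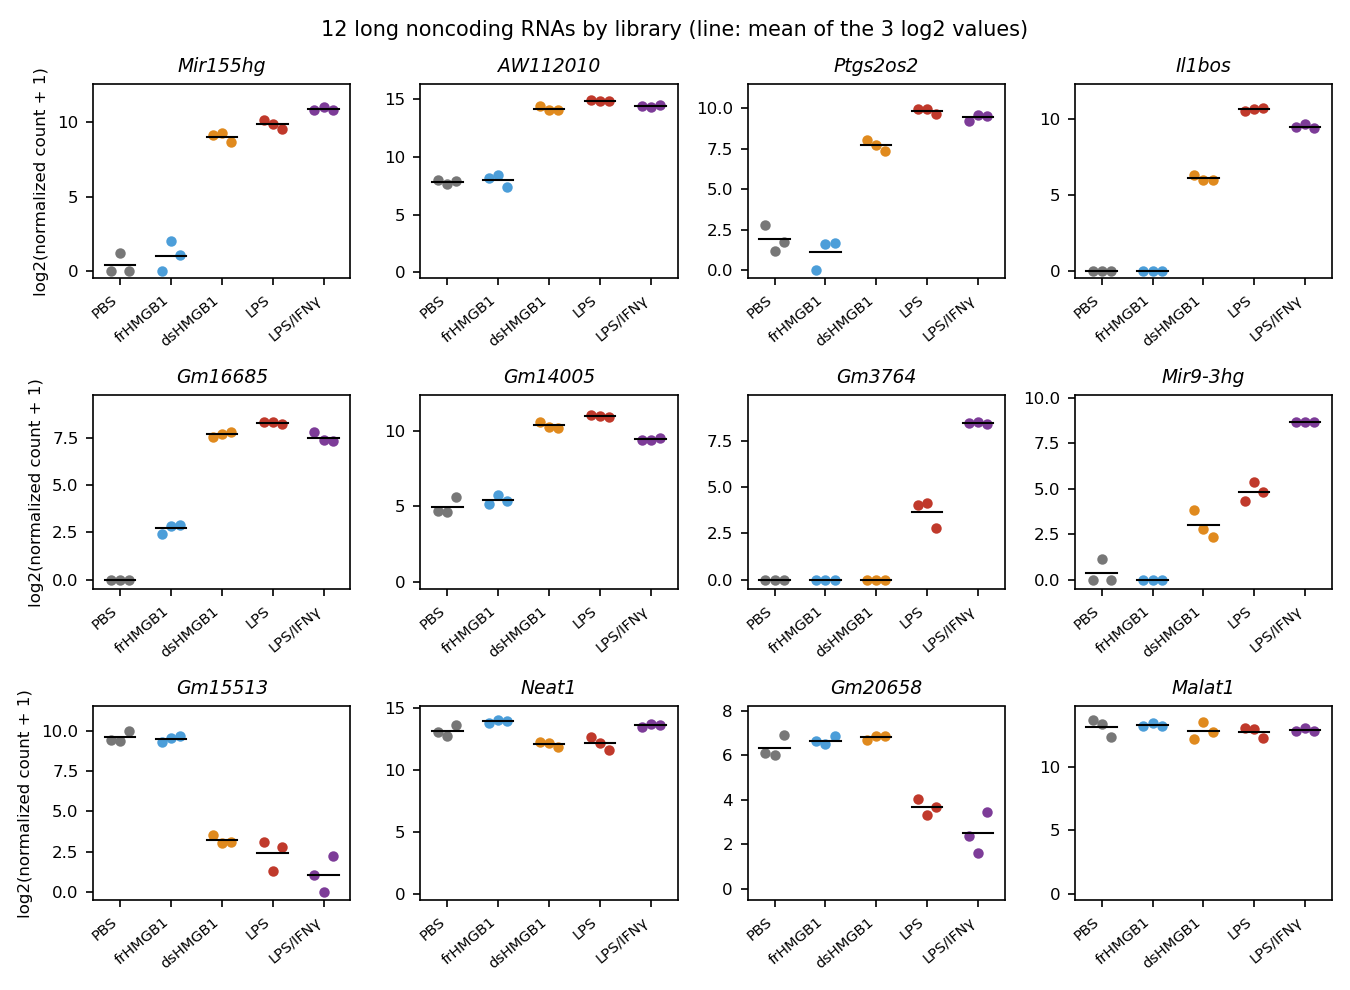
Normalised read count, as log2(count + 1), of 12 long noncoding RNAs in each of the 15 libraries, with 3 dots a condition and a line at the mean of the log2 values. AW112010 stands at 16784 or more in all 9 dsHMGB1, LPS and LPS/IFNγ libraries and at 337 or less in the others, Gm3764 and Mir9-3hg are high in LPS/IFNγ alone, and Neat1 is low in dsHMGB1 and LPS.

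Other RNAs beside inflammatory genes rose as well. Gm13822 (ENSMUSG00000087477, chr5:114917318-114923277) runs against Oasl1, an interferon-induced gene of the oligoadenylate synthetase family, and had 2.59, 0 and 10.6 normalised counts in PBS, 150, 93.9 and 105 in dsHMGB1, 295, 332 and 384 in LPS, and 173, 193 and 206 in LPS/IFNγ. Its log2 fold changes were 5.07, 6.61 and 5.78, or 6.50, 8.03 and 7.21 without PBS replicate 3, while those of Oasl1 were 7.84, 9.42 and 9.24. AC119228.1, which runs against Cd274, the gene of the checkpoint ligand PD-L1, had 153, 137 and 14.1 in PBS, 687, 2192 and 1547 in dsHMGB1, 1612, 2193 and 1400 in LPS, and 982, 1307 and 1017 in LPS/IFNγ. The dsHMGB1 libraries spread from 687 to 2192, and PBS replicate 3 is far below the other PBS libraries. AC114539.1, beside Nfkb2, rose by log2 fold changes of 0.55 ± 0.15 (adjusted p = 0.00445), 1.08 ± 0.15 (2.1e-05) and 1.18 ± 0.15 (5.71e-06), where Nfkb2 rose by 3.72, 4.86 and 4.60. Gm47242 (chr19:12539588-12540823), 4917 bp from Fam111a, rose from at most 3.23 normalised counts in PBS to 121, 303 and 226 in dsHMGB1, 342, 542 and 437 in LPS, and 1058, 1123 and 1111 in LPS/IFNγ. Gm34643, near Acod1, the gene of the enzyme that makes itaconate, had 3.88, 1.26 and 0 in PBS, 237, 210 and 197 in dsHMGB1, 424, 327 and 370 in LPS, and 330, 403 and 413 in LPS/IFNγ. Among RNAs that every condition held at the minimum, 4930430E12Rik rose by 1.44 ± 0.10 (adjusted p = 1.08e-07), 2.02 ± 0.10 (2.96e-09) and 1.68 ± 0.10 (1.51e-08).

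The microRNA host genes Mir155hg, Mir17hg and Mir9-3hg were highest with LPS/IFNγ. Not every RNA that holds a hairpin is given here, so this is no count over all hosts. Of 17 listed host genes 5 were among the 287 (Mir155hg, Mir17hg, Mir9-3hg, Mir142hg and Ftx). With LPS/IFNγ against LPS, 3 of the 5 were higher and 0 lower, and of the 12 listed hosts tested at any level these 3 were higher and 0 lower (all genes 16.3% and 9.36%). Mir9-3hg is in the set through LPS/IFNγ alone and so had to be high there. Gm3764, which is not on that list but holds a copy of miR-9, was named for its large rise in LPS/IFNγ over LPS.

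Gm3764 (ENSMUSG00000097156, chr3:88206813-88229959, plus strand) had no read in PBS, frHMGB1 or dsHMGB1. Its normalised counts were 15.5, 16.4 and 5.88 in LPS and 356, 364 and 338 in LPS/IFNγ. Mir9-3hg (ENSMUSG00000097023, chr7:79500026-79534403, plus strand) had 0, 1.26 and 0 in PBS, 0 in all frHMGB1 libraries, 13.3, 5.87 and 4.20 in dsHMGB1, 19.4, 40.3 and 27.9 in LPS, and 414, 406 and 407 in LPS/IFNγ. Both of these miR-9 hosts were therefore low with LPS alone and high in every LPS/IFNγ library. The log2 differences between the 2 conditions were 4.80 ± 0.38 for Gm3764 and 3.82 ± 0.34 for Mir9-3hg. Against the floor of 3 reads over PBS, Gm3764 was at least 16.9-fold higher with LPS and 467-fold with LPS/IFNγ. Gm3764, too, entered the set through LPS/IFNγ alone. The nearest coding genes, Rhbg at 12915 bp and Polg at 33664 bp, were respectively too low to be tested and not called.

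Mir17hg (ENSMUSG00000089726, chr14:115042879-115046727), the host of the miR-17-92 cluster of proliferation-linked microRNAs shown above, had 40.1, 44.2 and 89.2 in PBS, 83.6, 71.9 and 39.5 in dsHMGB1, 141, 123 and 75.0 in LPS, and 246, 281 and 294 in LPS/IFNγ. LPS/IFNγ exceeded LPS by 1.28 ± 0.34 (adjusted p = 0.00776). F630028O10Rik, which holds miR-223, a microRNA of myeloid cells, had 424, 459 and 137 in PBS, 91.6, 86.6 and 50.4 in dsHMGB1, 102, 92.6 and 97.0 in LPS, and 214, 189 and 182 in LPS/IFNγ. It fell by 1.81 ± 0.37 on the log2 scale with LPS (adjusted p = 0.00067), and all LPS/IFNγ libraries lay above all LPS libraries, although that difference did not pass (1.00 ± 0.37, adjusted p = 0.0591). Mir142hg had 756 in PBS replicate 3 against 102 and 80.7 in the others. Its fall with LPS/IFNγ (-1.62 ± 0.61, adjusted p = 0.0433) became 0.14 (adjusted p = 0.786) without that library.

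Gm15513 and Gm45606 had the deepest falls of the named RNAs with LPS and with LPS/IFNγ. Gm15513 (ENSMUSG00000086291, chr5:34211810-34213802, minus strand) lies within an intron of Zfyve28 on the same strand, so reads of unspliced Zfyve28 RNA cannot be told apart from its own. Its normalised counts were 704, 672 and 1029 in PBS, 638, 744 and 819 in frHMGB1, 10.7, 7.34 and 7.57 in dsHMGB1, 7.75, 1.49 and 5.88 in LPS, and 1.06, 0 and 3.65 in LPS/IFNγ. Zfyve28 fell less, from 1855 ± 755 (SD, n = 3) in PBS to 161 ± 39.6, 185 ± 15.5 and 199 ± 7.95. The log2 fold changes were -6.56, -7.28 and -8.91 for Gm15513 and -3.53, -3.32 and -3.22 for Zfyve28, in the same order of conditions.

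Gm45606 (ENSMUSG00000109715, chr11:75530277-75533071, minus strand) runs against the amino acid transporter gene Slc43a2. It had 463, 481 and 398 in PBS, 406, 461 and 489 in frHMGB1, 31.1, 51.3 and 47.9 in dsHMGB1, 2.58, 1.49 and 0 in LPS, and 10.6, 10.5 and 5.48 in LPS/IFNγ. LPS libraries were the lowest and did not overlap those of LPS/IFNγ or dsHMGB1. With 3 reads in the LPS group in all, the level in dsHMGB1 was 31.2-fold (95% counting interval 10.5 to 153) that in LPS. Slc43a2 fell by log2 fold changes of -1.90, -3.05 and -2.87.

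2610035D17Rik (ENSMUSG00000087259, chr11:113043895-113201838) had 427, 428 and 645 in PBS, 73.8, 71.9 and 68.1 in dsHMGB1, 24.6, 19.4 and 48.5 in LPS, and 10.6, 27.4 and 18.3 in LPS/IFNγ. Its fall with dsHMGB1 was -2.81 ± 0.27 (adjusted p = 3.11e-06). Further falls of this size with LPS were AU022793 (-3.57), AI839979 (-4.59), Gm37168 (-4.43) and Gm43672 (-3.74), and their dsHMGB1 values were -2.76, -4.36, -3.55 and -3.69. The nearest coding gene of AU022793 (Lrp12) and of AI839979 (Slc4a1ap) was not called with LPS, whereas Tbl1xr1, 510 bp from Gm43672, fell by 2.16 on the log2 scale. With PBS replicate 3 left out, these RNAs kept their calls.

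Of 24 nuclear, X-linked and imprinted RNAs on a list, 8 were among the 287. With LPS 0 rose and 4 fell (Neat1, Ftx, Kcnq1ot1 and Peg13), with dsHMGB1 0 rose and 3 fell, and with LPS/IFNγ 1 rose (Tug1, 1.13 ± 0.29, adjusted p = 0.0065) and 3 fell. Over the 14 listed genes tested at any level, 1 rose and 6 fell with LPS, 1 and 3 with dsHMGB1, and 1 and 5 with LPS/IFNγ. Of all genes, 26.7% rose and 36.2% fell with LPS, 23.3% and 24.2% with dsHMGB1, and 29.0% and 31.2% with LPS/IFNγ. Peg13, an imprinted RNA within Trappc9, fell by 1.41 ± 0.23 on the log2 scale with LPS (adjusted p = 9.5e-05) and by 0.63 ± 0.23 with dsHMGB1 (0.0313), and Trappc9 was not called in either. Xist, which silences an X chromosome in female cells, gave 3521 to 8515 normalised counts in PBS and 5687 to 7627 in LPS, and was not called in any comparison. Malat1, a nuclear speckle RNA, gave 5273 to 13441 in PBS and 4953 to 8582 in LPS and was not called (-0.44 ± 0.35, adjusted p = 0.219), but without PBS replicate 3 it was lower in dsHMGB1 (-0.63, adjusted p = 0.0371), LPS (-0.76, 0.0107) and LPS/IFNγ (-0.65, 0.0219).

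AU020206, Gm14461 and Neat1 fell with dsHMGB1 and LPS and were higher in LPS/IFNγ than in LPS. AU020206 (ENSMUSG00000097415, chr7:75769038-75782099, minus strand), a lincRNA of 34.8 CPM per kb, had 8612, 8447 and 8562 in PBS, 6808, 7100 and 7135 in frHMGB1, 4092, 3339 and 3185 in dsHMGB1, 2720, 2589 and 2155 in LPS, and 8048, 8598 and 8536 in LPS/IFNγ. LPS/IFNγ exceeded LPS by a log2 difference of 1.75 ± 0.12 (adjusted p = 1.46e-07) and differed from PBS by -0.02 ± 0.11 (adjusted p = 0.717). Gm14461 (ENSMUSG00000054510, chr2:78237547-78302230, plus strand) had 2067, 2349 and 2447 in PBS, 842, 914 and 836 in dsHMGB1, 1025, 1076 and 966 in LPS, and 1929, 2037 and 2176 in LPS/IFNγ, which exceeded LPS by 1.00 ± 0.10 (adjusted p = 3.15e-06). Neat1 (ENSMUSG00000092274, chr19:5824708-5845478, minus strand), the scaffold of nuclear paraspeckles, had 8511, 7086 and 13261 in PBS, 14520, 16778 and 16306 in frHMGB1, 4995, 4706 and 3848 in dsHMGB1, 6526, 4675 and 3186 in LPS, and 11717, 13507 and 12842 in LPS/IFNγ. LPS/IFNγ exceeded LPS by 1.40 ± 0.26 (adjusted p = 0.000575). Its difference from PBS was 0.40 (adjusted p = 0.169), and without PBS replicate 3 it was called higher than PBS (0.69, adjusted p = 0.00749). Neat1 was lowest in dsHMGB1 and LPS and highest in frHMGB1, and the difference of frHMGB1 from PBS was 0.72 ± 0.26 (adjusted p = 0.083), and 1.03 (adjusted p = 0.00129) without PBS replicate 3.

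In all, 47 RNAs (16.4%) were higher and 26 (9.06%) lower in LPS/IFNγ than in LPS, close to the 16.3% and 9.36% of all genes tested, while coding genes under the same minimum gave 13.9% and 12.5%. Of 116 RNAs that reached the minimum in both, 23 were higher (19.8%) and 14 lower (12.1%), where such coding genes gave 13.7% and 12.9%. Gm13091, which runs against Rere, had 16.8, 37.4 and 29.4 in LPS and 189, 205 and 272 in LPS/IFNγ, Bloc1s6os had 0, 0 and 2.94 against 86.9, 80.0 and 130, and Gm27194 had 5.17, 0 and 0 against 112, 124 and 112. Each of these lay within 24.9 to 65.3, 0 to 5.04 and 3.52 to 10.9 normalised counts, respectively, in the PBS and dsHMGB1 libraries, apart from Gm13091 in PBS replicate 3 at 17.6. In the other direction Gm45752 had 376, 326 and 228 in LPS and 66.8, 95.7 and 64.9 in LPS/IFNγ (-2.04 ± 0.24), and Dpep3, the gene it overlaps, moved with it (-3.10).

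**Figure D3:**
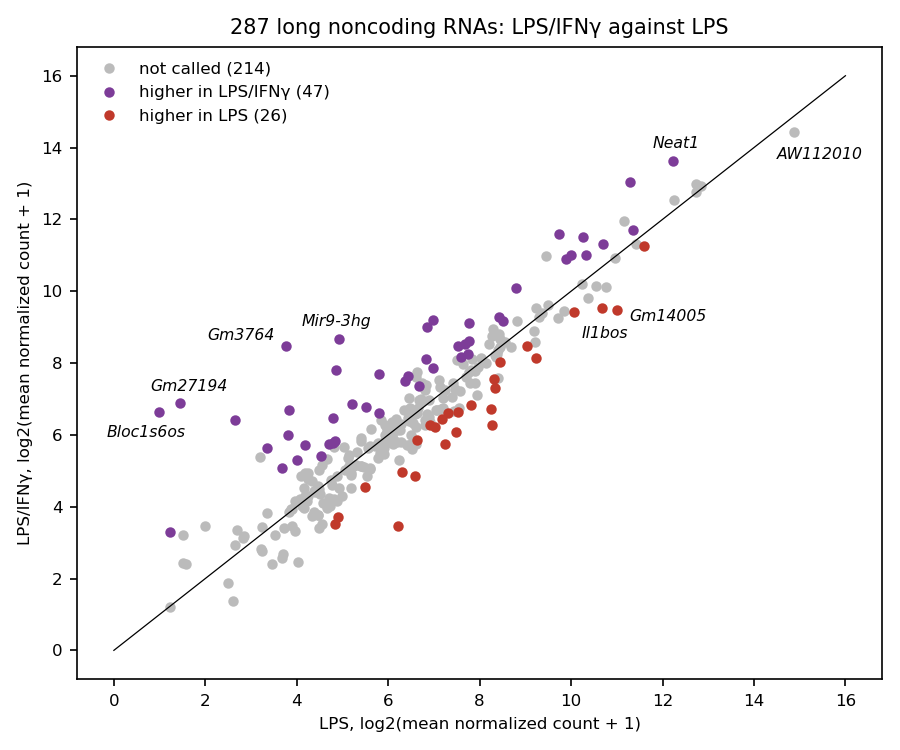
Mean normalised read count of the 287 RNAs in LPS (horizontal) and LPS/IFNγ (vertical), both as log2(mean + 1), with the 47 called higher in LPS/IFNγ in purple and the 26 called higher in LPS in red. Bloc1s6os, Gm27194, Gm3764 and Mir9-3hg stand far above the diagonal, and AU020206, Neat1 and Gm14461 are the abundant RNAs above it.

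Of the 287, 35 were higher (12.2%) and 35 lower in dsHMGB1 than in LPS, shares near those of other genes (all genes 15.8% and 10.6%, coding genes under the same minimum 13.8% and 14.2%), and 56 were higher and 56 lower than in LPS/IFNγ (all genes 16.5% and 16.7%, coding genes 21.7% and 21.0%). Leaving out a single library moved the first of these counts to 19 higher (without LPS replicate 2 or 3) or 19 lower (without dsHMGB1 replicate 3), and the second to 35 higher (without dsHMGB1 replicate 2). Among the 8 listed inflammation RNAs, 4 were lower in dsHMGB1 than in LPS and 0 higher. Gm49212 (chr15:56046552-56049832) had 3.56, 1.47 and 5.04 in dsHMGB1, 121, 117 and 100 in LPS, and 199, 142 and 158 in LPS/IFNγ, and no read in PBS or frHMGB1, so that dsHMGB1 raised it far less than LPS did. Gm44710, against Med29, had 34.7, 65.3 and 65.6 in dsHMGB1 and 262, 359 and 287 in LPS.

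Gm20658 (ENSMUSG00000093765, chr12:116102769-116138648, minus strand), which runs against the neuropeptide receptor gene Vipr2, went the other way. It had 67.2, 64.3 and 121 in PBS, 99.5, 88.9 and 114 in frHMGB1, 102, 115 and 115 in dsHMGB1, 15.5, 8.96 and 11.8 in LPS, and 4.24, 2.10 and 10.0 in LPS/IFNγ. The difference of dsHMGB1 from PBS did not pass (0.42 ± 0.30, adjusted p = 0.29, or 0.75 and 0.0232 without PBS replicate 3). All LPS and LPS/IFNγ libraries lay below all others, and dsHMGB1 exceeded LPS by 3.19 ± 0.41 on the log2 scale. 1110002J07Rik, which reached the minimum in dsHMGB1 alone, had 109, 99.0 and 100 there, 50.4, 131 and 103 in LPS, and 26.5, 28.4 and 29.2 in LPS/IFNγ.

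Few of the RNAs were called with frHMGB1. The 5 called higher were 4930589L23Rik, A530040E14Rik, AI480526, Gm16685 and Gm42047, and the RNA called lower was Kcnq1ot1. At an unadjusted p under 0.05 there were 16 higher and 19 lower, and DESeq2 called 8 higher and 6 lower. A fit on protein-coding and long noncoding genes alone called 1 higher and 0 lower. 4930589L23Rik had 79.5, 77.6 and 72.7 in PBS and 125, 122 and 137 in frHMGB1 (0.73 ± 0.20, adjusted p = 0.0289), and it fell with dsHMGB1 to 21.3, 17.6 and 22.7. AI480526 had 199, 154 and 165 in PBS and 324, 334 and 287 in frHMGB1 (0.87 ± 0.22, adjusted p = 0.0296), and 66.6% of its exon bases are shared with exons of the other strand. Kcnq1ot1, the imprinted RNA of the Kcnq1 cluster, had 74.4, 70.0 and 99.7 in PBS, 28.9, 27.6 and 17.3 in frHMGB1, and 58.7, 51.3 and 37.8 in dsHMGB1. Without PBS replicate 3, frHMGB1 gave 23 higher, among them all 5, and 1 lower, while 8.41% of all genes were then higher and 9.09% lower, and the new calls included Mir142hg (1.12, adjusted p = 0.00385) and Neat1. DsHMGB1 against frHMGB1 gave 71 higher and 116 lower (all genes 27.7% and 23.1%).

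Of 18 small nucleolar RNA host genes on a list, 4 were among the 287, and 0 rose and 2 fell (Snhg20 and Epb41l4aos) in each of dsHMGB1, LPS and LPS/IFNγ. All 18 were tested, and 0 rose, while 3 fell with dsHMGB1, 4 with LPS and 3 with LPS/IFNγ. Of all genes, 24.2%, 36.2% and 31.2% fell, and 23.3%, 26.7% and 29.0% rose. The values of the 4 hosts among the 287 in PBS replicate 3 stood far above those of the other PBS libraries. Epb41l4aos had 343, 307 and 2163 in PBS and 379, 288 and 334 in LPS, and without that library its log2 fold change was -0.09 with dsHMGB1 (adjusted p = 0.552), 0.03 with LPS (0.937) and -0.12 with LPS/IFNγ (0.337). Snhg20 had 306, 190 and 1443 in PBS and 93.0, 89.6 and 79.4 in LPS, a fall of 2.88 on the log2 scale that became 1.51 without it. Snhg6 had 358, 312 and 1483 in PBS and 894, 747 and 862 in LPS, and was called higher in LPS (1.31) once it was left out. 1810058I24Rik, which is known to encode a small mitochondrial protein, had 4692, 4327 and 15388 in PBS and 2812, 2688 and 2739 in LPS, and its log2 fold change moved from -1.57 to -0.72.

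Of the 284 genes named as the opposite strand of another gene, 16 were among the 287, of which 5 rose and 8 fell with either dsHMGB1 or LPS, while LPS/IFNγ raised 6 and lowered 9. Over the 59 tested at any level, 8 rose and 16 fell with dsHMGB1, 12 and 21 with LPS, and 12 and 25 with LPS/IFNγ. All genes gave 23.3% higher and 24.2% lower with dsHMGB1, 26.7% and 36.2% with LPS, and 29.0% and 31.2% with LPS/IFNγ. Brip1os rose to 3025, 3140 and 3401 with dsHMGB1, to 4917, 4951 and 4781 after LPS and to 6121, 5537 and 6087 after LPS/IFNγ, from 1870, 2075 and 1574 in PBS. Adap2os, against Adap2, had 327, 714 and 493 with dsHMGB1, 726, 719 and 642 after LPS and 2010, 1988 and 2048 after LPS/IFNγ, from 144, 152 and 8.21 in PBS. Dnmt3aos fell by 1.05 ± 0.21 on the log2 scale with dsHMGB1 (adjusted p = 0.00109), and Dnmt3a, a DNA methyltransferase gene, fell by 1.33.

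Each of the 287 RNAs was set beside its nearest protein-coding gene. In 149 the gene bodies overlap, and 134 of these are antisense to the coding gene. In 41 the start sites diverge within 5 kb of each other, and the median distance of pairs that do not overlap is 3983 bp. The nearest gene was tested in 255 pairs. The library kit keeps strand, but the strand setting of the counting is not given in the sources used here, so reads from an RNA and an overlapping partner on the other strand cannot be told apart. Of the 287, 130 share some exon base with an exon of the other strand, and 11 share 50% or more. The coding gene is overlapped on the same strand by 15, and 25 share some exon base with a same-strand exon of another gene. Reads of such partners on the same strand cannot be told apart at any strand setting.

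RNAs that rose mostly lay beside a coding gene that rose too. Of those called higher with a tested neighbour, the neighbour was also higher for 57 of 70 with dsHMGB1 (81.4%), 63 of 73 with LPS (86.3%) and 60 of 78 with LPS/IFNγ (76.9%). It was lower for 0, 1 and 4 of them. Among protein-coding genes under the same minimum that were called higher, the nearest coding gene was also higher for 37.5%, 40.6% and 41.4%, and lower for 19.5%, 26.1% and 27.0%. In pairs that do not overlap it was higher for 19 of 25, 23 of 27 and 25 of 30. These counts are a description, since pairs share libraries and some share a region.

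RNAs that fell did not follow their neighbours in this way. The neighbour was also lower for 33 of 110 with dsHMGB1 (30.0%), 46 of 129 with LPS (35.7%) and 59 of 127 with LPS/IFNγ (46.5%), and it was higher for 20, 33 and 31. For coding genes called lower, the neighbour was also lower for 38.0%, 44.8% and 48.4%. Without PBS replicate 3 the shares were 85.4%, 84.5% and 80.2% for RNAs that rose and 45.6%, 45.6% and 51.5% for RNAs that fell, so the shares for RNAs that fell move with that library. The shares for coding genes include it and were not taken without it, so RNAs that fell cannot be set against coding genes on that footing.

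**Figure D4:**
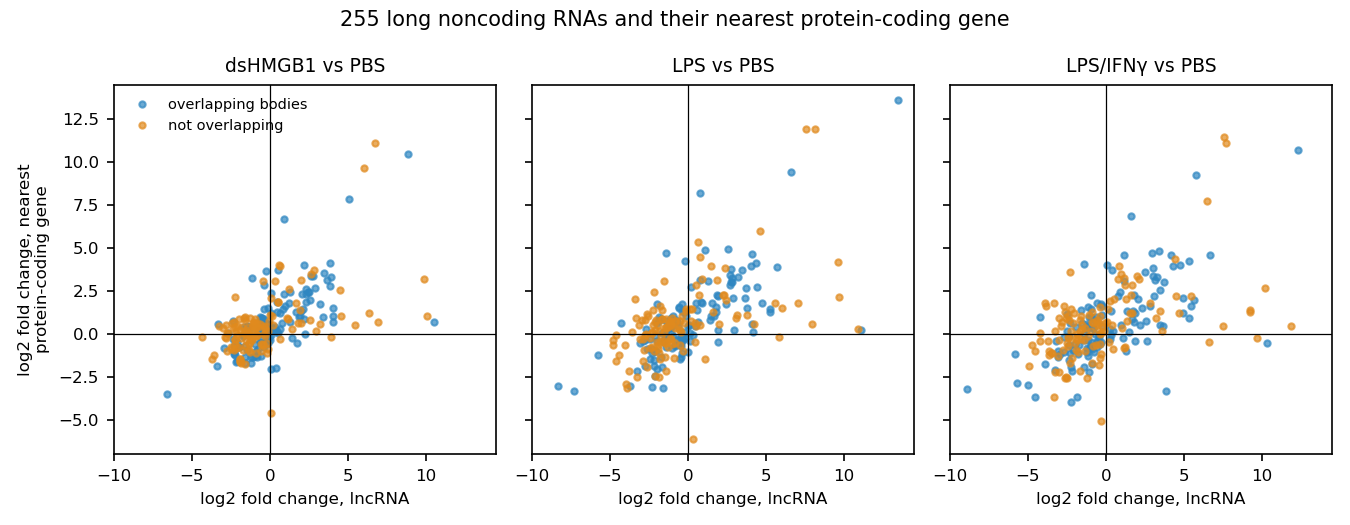
Log2 fold change against PBS of each long noncoding RNA (horizontal) and of its nearest protein-coding gene (vertical) in 255 pairs, for dsHMGB1, LPS and LPS/IFNγ, with overlapping pairs in blue and others in orange. Pearson's r across pairs is 0.602, 0.624 and 0.578, and fitted values of RNAs without reads in PBS are no bounds.

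The correlation across the 255 pairs was 0.602 with dsHMGB1, 0.624 with LPS and 0.578 with LPS/IFNγ, where 8658 pairs of neighbouring coding genes gave 0.354, 0.339 and 0.335. With LPS it was 0.702 over the 129 overlapping pairs and 0.542 over the 126 others. Over all pairs it was 0.081 with frHMGB1 (coding pairs 0.096), and for LPS/IFNγ against LPS 0.264 (coding pairs 0.240). For dsHMGB1 it was 0.635 against frHMGB1 (coding pairs 0.359), 0.507 against LPS (0.205) and 0.404 against LPS/IFNγ (0.241). Pairs are not independent and share all libraries, so no p is given.

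The same counts were taken for pairs with divergent starts. All 9 such RNAs that rose with LPS had a neighbour that rose, as did 7 of 9 with dsHMGB1 and 9 of 10 with LPS/IFNγ. Of the 25 that fell with LPS, 4 had a neighbour that fell and 11 a neighbour that rose. These numbers were 4 and 6 of 25 for dsHMGB1, and 5 and 9 of 24 for LPS/IFNγ. In divergent pairs of coding genes, 184 of 391 genes that fell with LPS had a partner that fell (47.1%) and 71 a partner that rose (18.2%). Where such a coding gene rose, its partner rose too for 35.9% with LPS, 37.0% with dsHMGB1 and 38.9% with LPS/IFNγ. Without PBS replicate 3, 8 of 25 RNAs had a neighbour that fell and 11 a neighbour that rose. The correlation across the 41 divergent pairs was 0.368 with dsHMGB1, 0.399 with LPS and 0.381 with LPS/IFNγ. Divergent coding pairs gave 0.460, 0.412 and 0.363, so the higher correlation seen over all pairs was not seen in divergent ones.

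**Figure D5:**
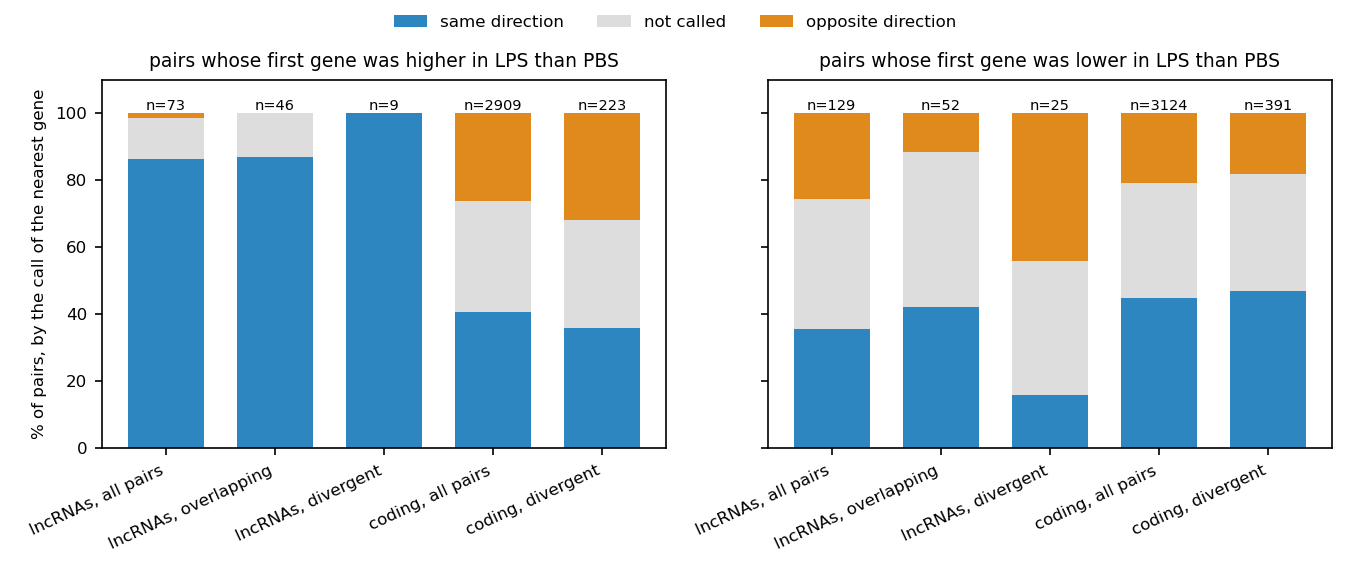
For RNAs (and coding genes) called higher or lower with LPS against PBS, the percent whose nearest coding gene was called in the same direction, not called, or called in the opposite direction, for all pairs, overlapping pairs and pairs with divergent starts within 5 kb. Among RNAs that rose, 63 of 73 neighbours rose too, and among the 25 divergent RNAs that fell, 4 neighbours fell and 11 rose.

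The 11 divergent pairs that split with LPS were named after their values were seen. 0610009L18Rik starts 136 bp from Actg1, the gene of cytoplasmic gamma actin, and had mean normalised counts of 139 in PBS and 29.4 in LPS, while Actg1 had 11949 and 30886. PBS replicate 3 gave 307 for that RNA against 67.2 and 42.3 in the others. Gm27042 starts 972 bp from Aldh18a1, which makes a precursor of proline, and went from 109, 100 and 58.7 in PBS to 10.3, 0 and 14.7 in LPS (-3.41 ± 0.51), while Aldh18a1 rose by 2.01 on the log2 scale. Cep83os starts 78 bp from Cep83, a centriole gene, and had 332, 315 and 182 in PBS, 121, 167 and 140 in dsHMGB1, 51.7, 56.8 and 82.3 in LPS, and 46.6, 44.2 and 72.2 in LPS/IFNγ (-2.13 ± 0.30 with LPS). Cep83 rose by 0.66 with LPS. Map2k3os starts 166 bp from Map2k3, a kinase gene of the p38 pathway, and fell by 1.37 ± 0.30 on the log2 scale with LPS while Map2k3 rose by 0.42. The others were Gm20342 with Ino80d, AI480526 with Setd1b, C330013E15Rik with Dazap2, Gm16576 with Sun2, 5830448L01Rik with Wapl, Gm4285 with Tpt1 and 4632404H12Rik with Ube2q1.

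A rise beside a falling neighbour was seen once with LPS, for Gm39469 (1.11 ± 0.35) with 2010315B03Rik (-1.48). With LPS/IFNγ, Gm27194, described above, lay across Zfp286, which fell by 3.34 on the log2 scale, and 48.6% of its exon bases are shared with exons of the other strand. Gm15564, which runs against Parp9, an interferon-induced gene, was among the most abundant of the RNAs per length, at 141 CPM per kb. Its normalised counts were 5288, 5865 and 12234 in PBS and 5510, 5636 and 9199 in LPS, and it was not called (-0.20 ± 0.30, adjusted p = 0.45), while Parp9 rose by 4.21 on the log2 scale.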

How the data were processed

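RNA was isolated from BMDMs, and 15 libraries were made with a kit that isolates mRNA and keeps strand. The submitters' processing notes name CASAVA, STAR, DESeq2 and the build GRCm38, with no versions. The authors deposited whole-number read counts per gene, not normalised, in a single table with 1 column a library, and all 15 columns were used. Which program counted the reads, with which strand setting and annotation, is not given in the sources used here. Types, positions and nearest protein-coding genes were taken from GENCODE M21 (GRCm38), which holds 51661 of the 51763 gene IDs.

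CPM were computed from raw library totals. Calls came from edgeR 4.0.16 (quasi-likelihood F test, TMM factors, genes past filterByExpr with a minimum count of 10 and a minimum total of 15, all libraries in 1 fit, Benjamini-Hochberg adjustment over 16919 genes). Unshrunken log2 fold changes, standard errors and normalised counts came from DESeq2 1.42.0, in R 4.3.3. All 287 RNAs passed the filter. The fit was tested on simulated counts. Tables were made with Python 3.11.15, numpy 2.4.6, pandas 2.3.3, scipy 1.17.1 and matplotlib 3.10.9. Intervals and floors cover counting error only.

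The nearest protein-coding gene was the closest gene body, or the one with most shared bases where several overlapped. The RNAs named were, for each of 8 comparisons, the 4 largest rises and falls among called RNAs with a mean of at least 50 normalised counts and libraries that did not overlap, every listed RNA, the 10 most abundant per kb, and those within 5 kb of a listed inflammatory gene (at most 12). Others are said to be chosen after their values were seen, or are named as counts of 5 or fewer. The RNAs, lists and tests were chosen with earlier results of these data known. RefSeq gave a promoter for 151 of the RNAs, of which 129 were used. Alternatives were DESeq2, other factors, filters and thresholds, other definitions of neighbours, a replicate block, and leaving out each library.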

Additional observations from a re-analysis of the deposited data

How the results depend on the processing

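Of 288 called values of 68 named RNAs, 283 of 284 kept their call with DESeq2, 286 with RLE factors, 287 with a filter of 1 CPM, 276 with no filter, 282 with coding and long noncoding genes alone, 247 of 279 with only the 2 conditions compared, and 183 with a test of a fold change above 2. The reversals were Epb41l4aos with LPS (0.0317, adjusted p = 0.937, over all left-out libraries -1.90 to 0.0317) and Mir142hg with LPS/IFNγ (0.14, adjusted p = 0.786, over all -2.07 to 0.14), both without PBS replicate 3, and the correlation with frHMGB1 (-0.00156) without it. The cause was not tested.

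With frHMGB1 the calls were 8 higher and 6 lower with DESeq2, 1 and 0 with a test of a fold change above 2, 1 and 0 with coding and long noncoding genes alone, 2 and 2 with no filter, 0 and 0 with only the 2 conditions, and 1 and 2 at an absolute log2 fold change above 2. The test of a fold change above 2 gave 50 higher and 54 lower with dsHMGB1, 90 lower with LPS/IFNγ, 46 and 53 for dsHMGB1 against frHMGB1, 5 and 8 against LPS, 8 and 27 against LPS/IFNγ, and 12 and 3 for LPS/IFNγ against LPS. An absolute log2 fold change above 2 gave 45 and 45, 50 and 71 (LPS), 54 and 75 (LPS/IFNγ), 40 and 40, 9 and 5, 9 and 17, and 14 and 2. Only the 2 conditions gave 48 lower for LPS/IFNγ against LPS. A minimum of 2 CPM kept 182 RNAs.

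In pairs that do not overlap, the percent with the same direction was 21.4 for RNAs lower with dsHMGB1, 72.0 for higher against frHMGB1, 21.7 for dsHMGB1 higher than LPS/IFNγ and 20.0 for LPS/IFNγ lower than LPS. Correlations were 0.0343, 0.525, 0.572 and 0.528 (frHMGB1, dsHMGB1, LPS, LPS/IFNγ) by nearest start sites, 0.120, 0.537, 0.542 and 0.495 in pairs that do not overlap, and 0.612 (LPS) and 0.587 (LPS/IFNγ) within 10 kb. With the nearest gene taken among tested coding genes only, chosen after seeing the data, the percent with the same direction was 81.6, 85.2 and 76.2 for RNAs higher with dsHMGB1, LPS and LPS/IFNγ.

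Leaving out 1 library gave 2 to 23 higher and 0 to 4 lower with frHMGB1, 73 to 88 and 103 to 129 with dsHMGB1, 76 to 93 and 135 to 154 with LPS, 81 to 96 and 126 to 146 with LPS/IFNγ, 65 to 67 and 88 to 107 for dsHMGB1 against frHMGB1, 19 to 28 and 19 to 31 against LPS, 35 to 46 and 46 to 51 against LPS/IFNγ, and 32 to 36 and 19 to 24 for LPS/IFNγ against LPS. The percent with the same direction spanned 26.4 to 45.6 (lower with dsHMGB1), 30.8 to 45.6 (lower with LPS) and 73.3 to 80.0 (higher against frHMGB1), and the correlations -0.00156 to 0.0914, 0.573 to 0.611, 0.602 to 0.631 and 0.554 to 0.586.

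Replicate numbers do not pair the libraries: deviations of 30 same-numbered pairs correlated at -0.379 to 0.371 (median -0.00500, 1 above 0.1), and 6 of 15 libraries correlated best with their own number. With the replicate block the calls were 4 higher and 1 lower with frHMGB1, 77 and 119 with dsHMGB1, 80 and 143 with LPS, and 82 and 137 with LPS/IFNγ, and 276 of the 288 named values kept their call.

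The median of the RNAs' mean levels was 1.72 CPM, which limits the precision of the lower ones.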

Other observations

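Per kb of exon, the most abundant RNAs after AW112010 and Gm15564 were Gm10076 at 75.0 CPM per kb, AU020206 at 34.8, 1810058I24Rik at 29.7, 4930430E12Rik at 25.8, Malat1 at 22.9, Epb41l4aos at 19.1, Gm14461 at 16.8 and Gm36161 at 16.3. Gm36161 (chr13:120010390-120018931) had 476, 569 and 726 normalised counts in PBS, 2525, 2443 and 1949 in dsHMGB1, 2012, 1505 and 1428 in LPS, and 2563, 2501 and 2592 in LPS/IFNγ. The LPS libraries had the lowest mean of these 3 conditions, and 1 of them lay above the lowest dsHMGB1 library. Gm10076 (chr14:105681828-105682211) had 6835 in PBS replicate 3 against 1317 and 1231 in the other PBS libraries, and 961 to 1664 in the 12 libraries of the other conditions.

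Zeb2os, transcribed against Zeb2, the gene of a myeloid transcription factor, had 151, 141 and 717 in PBS and 408, 444 and 441 in LPS/IFNγ. It was not called (0.36 ± 0.47, adjusted p = 0.474), and without PBS replicate 3 its log2 fold change was 0.81 with dsHMGB1, 1.06 with LPS and 1.55 with LPS/IFNγ, each called higher.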
